A study of Mus with 8 samples.

Results

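The genes described here are the CC chemokines that draw monocytes into inflamed tissue, and their receptors: the ligands Ccl2, Ccl3, Ccl4, Ccl5, Ccl7, Ccl8 and Ccl12 and the receptors Ccr1 and Ccr2. They were chosen by name, as the 9 genes of this group whose RefSeq transcripts have a probe on the array. Earlier results of these data were known when the choice was made. In all, 10 probes matched them, 2 of these for Ccl4. All 9 genes passed the filter on dim probes and are among 31281 genes and transcripts tested. RNA was taken from whole subcutaneous tumours of MC38, a mouse colon cancer line, that had grown for 25 to 30 days. Of these tumours, 4 grew in WT hosts, labelled as B6, and 4 in Ext1S100a4Cre hosts (Ext1 flox/flox, S100a4-Cre). Each tumour was hybridised to 1 array. The same MC38 cells were used for both hosts and carry no Cre, so only host cells could lose Ext1. The S100a4 promoter, which drives the Cre, works in fibroblasts and also in part of the immune cells, so Cre activity is not limited to fibroblasts. Age and sex of the animals are not given in the labels used here, and whether each tumour came from its own animal is not stated, so p values measure the spread between these tumours.

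CC chemokines are small secreted proteins that bind receptors coupled to G proteins on leukocytes and make the cells move towards the source. CCR2 on classical monocytes carries them out of the bone marrow and into tumours, where many become macrophages, and CCL2, CCL7 and CCL12 are its mouse ligands. CCR1 on monocytes and macrophages answers to CCL3 and CCL5, and CCL4 is a close relative of CCL3. Chemokines are held on cell surfaces and matrix by heparan sulfate, the sugar chain that the Ext1 enzyme elongates. The arrays measured mRNA, not the bound protein. The comparison asked how these transcripts differed in tumours of hosts in which S100a4-expressing cells were to lose Ext1.

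All values are log2 of the processed intensity minus the log2 of the 75th percentile of the same array, so 0 is the brightness that 75% of the spots do not exceed. That percentile ran from 846.9 to 1265 and was lowest in Ext1S100a4Cre tumours 1 and 4 (854.8 and 846.9). Between 65.65% and 71.09% of probes were well above background, lowest in the same 2 tumours. Epithelial transcripts of the cancer cells were present, with Krt8 and Krt18 well above background in 8 of 8 tumours, as were 11 of 12 macrophage and 12 of 12 monocyte markers. Ext1 measured -0.18 ± 0.33 in the WT host and -0.46 ± 0.15 in the Ext1S100a4Cre host (SD, n = 4 each; difference -0.28, SE 0.18, limma adjusted p = 0.747). Whether its probe lies in the deleted part is not known, so this does not check the genotype.

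Every one of the 9 genes had a lower mean in tumours of the Ext1S100a4Cre host, by 0.48 to 1.89 on the log2 scale, and for every one the tumours of both hosts overlapped. At a limma adjusted p under 0.05, 0 of the 9 passed, as did 0 (0%) of all 31281 genes tested, and at an unadjusted p under 0.05 it was 0 of the 9 against 6.55% of all genes (2.16% lower and 4.39% higher in the Ext1S100a4Cre host, a split that depended on scaling, with 33.0% of these genes lower here, 14.8% with normexp and 93.6% in the unscaled series matrix). Hosts did not overlap for 0 of the 9 genes, against 4.52% of all genes (1.14% lower and 3.38% higher). The difference was at least 1 log2 unit lower for 6 of the 9 genes, against 3.61% of all genes, and at least 0.4 lower for 9 of 9, against 12.6%. Neither cut was planned. The cut of 0.4 is smaller in size than every one of the 9 differences (Ccl2, the smallest, -0.48), so 9 of 9 follows from where it lies. The cut of 1 was only just passed by Ccl5 (-1.002). A lower mean of any size was seen in 41.9% of all genes. The median difference was -1.08 for the 9 genes and 0.050 for all genes. WT tumour 3 was the highest of the 8 tumours in 8 of the 9 genes and Ext1S100a4Cre tumour 1 the lowest in 7, and these shares were 19.8% and 15.6% over all genes. Without both of these tumours, a choice made after their values were seen, the median difference of the 9 genes was 0.044, with 3 genes lower and 6 higher.

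**Figure D1:**
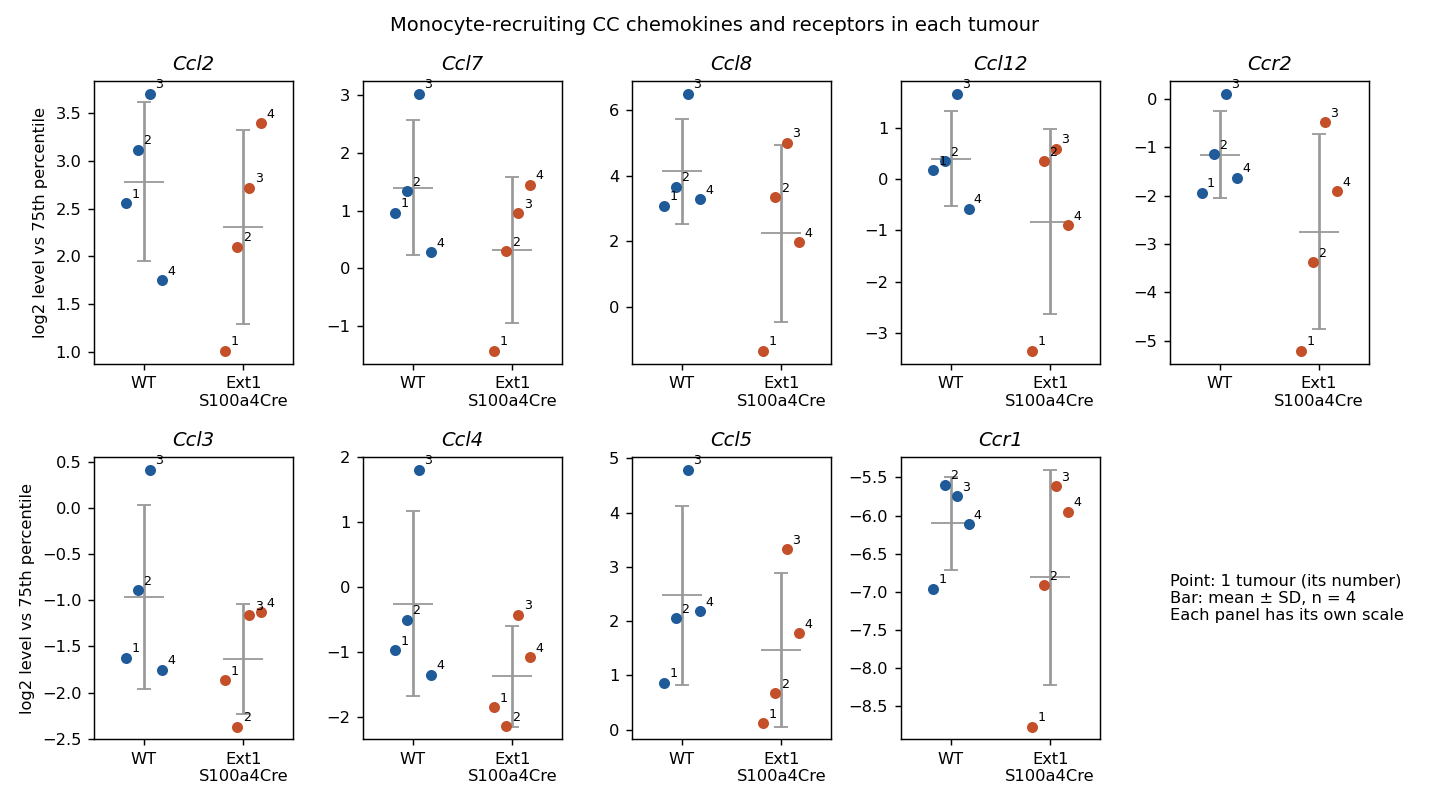
Level of each of the 9 genes in each tumour (vertical axis: log2 of the processed intensity relative to the array's 75th percentile; each panel has its own scale). Points are single tumours with their number, and bars give the mean and SD of 4 tumours. WT tumour 3 is the highest point in 8 panels and Ext1S100a4Cre tumour 1 the lowest in 7, and the hosts overlap in all 9.

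Among the ligands of CCR2, Ccl2 (probe A_51_P286737), the chief monocyte attractant made by many stromal and tumour cells, was the least different between hosts. Ccl2 measured 2.56, 3.12, 3.70 and 1.75 in WT tumours 1 to 4 and 1.01, 2.10, 2.72 and 3.40 in Ext1S100a4Cre tumours 1 to 4. The lowest value came from Ext1S100a4Cre tumour 1, but tumour 4 of the same host was higher than 3 of the 4 WT tumours. Means were 2.78 ± 0.83 and 2.31 ± 1.01 (SD, n = 4 each), and the difference of -0.48 (SE 0.57, 95% interval -1.79 to 0.84) had a limma adjusted p of 0.827 and an exact permutation p of 0.514. Within the 2 slide rows, each with 2 tumours of either host, the Ccl2 difference was -1.28 and 0.33, so its direction differed between rows, as it did for Ccr1 (-1.56 and 0.15), while the other 7 genes were lower in both rows.

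Ccl7 (probe A_51_P436652), a neighbour of Ccl2 on chromosome 11 whose product also binds CCR2, followed a like order of tumours at a wider spread. The Ccl7 level was 0.96, 1.33, 3.03 and 0.27 in the WT tumours and -1.43, 0.29, 0.96 and 1.45 in those of the Ext1S100a4Cre host. WT tumour 3 stood above and Ext1S100a4Cre tumour 1 below all others. The difference in Ccl7 of -1.08 (SE 0.75, interval -2.80 to 0.64) had a limma adjusted p of 0.747 and an exact permutation p of 0.371.

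Ccl12 (probe A_52_P249514), a mouse CCR2 ligand with no human counterpart, measured 0.17, 0.35, 1.66 and -0.58 in the WT tumours and -3.35, 0.34, 0.59 and -0.90 in the Ext1S100a4Cre tumours. Ext1S100a4Cre tumour 1 lay far below the next lowest tumour, tumour 4 of its host, while tumours 2 and 3 of that host lay within the WT range. The Ccl12 difference was -1.23 (SE 0.88, interval -3.25 to 0.79; limma adjusted p = 0.753, exact permutation p = 0.314).

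Ccl8 (probe A_51_P464703), which in mice signals through CCR8 and is made by macrophages, had the widest range of the 9 genes, 7.86 log2 units. In the WT host it measured 3.09, 3.67, 6.51 and 3.29, and in the Ext1S100a4Cre host -1.35, 3.35, 5.01 and 1.97. WT tumours 1, 2 and 4 lay close together with tumour 3 far above them, whereas the Ext1S100a4Cre tumours were scattered from the lowest to the second highest of all 8. Means were 4.14 ± 1.60 and 2.24 ± 2.70 (SD, n = 4 each), a geometric mean 3.71-fold higher in the WT host. The difference of -1.89 (SE 1.35, interval -5.01 to 1.23) was the largest among the 9 genes and had a limma adjusted p of 0.753 and an exact permutation p of 0.371. Without Ext1S100a4Cre tumour 1 the Ccl8 difference was -0.69, and without tumours 1 and 4 it was 0.044.

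Ccl3, Ccl4 and Ccl5, whose products attract monocytes and T cells, had lower means as well. Ccl3 (probe A_51_P140710), the MIP-1 alpha gene of activated macrophages, measured -1.62, -0.89, 0.41 and -1.75 in the WT tumours and -1.86, -2.37, -1.16 and -1.13 in the Ext1S100a4Cre tumours. Apart from WT tumour 3, all tumours lay between -2.37 and -0.89. Ccl3 differed by -0.67 (SE 0.51, interval -1.84 to 0.50; limma adjusted p = 0.757, exact permutation p = 0.314), and without WT tumour 3 by -0.21.

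Ccl4, the gene of MIP-1 beta, had 2 probes. With the brighter probe (A_51_P509573) Ccl4 measured -0.98, -0.51, 1.80 and -1.35 in the WT host and -1.85, -2.15, -0.43 and -1.08 in the Ext1S100a4Cre host. The other probe (A_55_P2744077) gave -1.25, -0.72, 1.55 and -1.53 against -2.09, -2.45, -0.66 and -1.30, so both probes put the tumours in the same order. WT tumour 3 was again far above the rest, and Ext1S100a4Cre tumour 2, not tumour 1, was the lowest. Differences were -1.12 (SE 0.70, interval -2.74 to 0.50; limma adjusted p = 0.747, exact permutation p = 0.229) with the brighter probe and -1.14 (SE 0.70, limma adjusted p = 0.771 over 39716 probes) with the other.

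Ccl5 (probe A_52_P638459), the RANTES gene of T cells, NK cells and macrophages, measured 0.87, 2.05, 4.79 and 2.19 in the WT tumours and 0.11, 0.67, 3.33 and 1.78 in the Ext1S100a4Cre tumours. In both hosts tumour 3 was the highest and tumour 1 the lowest. The hosts differed in Ccl5 by -1.002 (SE 0.94, interval -3.17 to 1.17; limma adjusted p = 0.788, exact permutation p = 0.4), and by -0.94 to -1.07 within the 2 slide rows.

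The receptor gene Ccr2 (probe A_51_P245989), the mark of classical monocytes, had the second largest difference of the 9. Ccr2 measured -1.94, -1.14, 0.10 and -1.63 in the WT tumours and -5.21, -3.37, -0.48 and -1.91 in the Ext1S100a4Cre tumours. Tumours 1 and 2 of the Ext1S100a4Cre host were below every WT tumour, tumour 4 was within the WT range, and tumour 3 was second only to WT tumour 3. Means were -1.15 ± 0.90 and -2.74 ± 2.02 (SD, n = 4 each), a geometric mean 3.01-fold higher in the WT host, and the difference of -1.59 (SE 0.96, interval -3.80 to 0.62) had a limma adjusted p of 0.747 and an exact permutation p of 0.229. In whole tumours, fewer cells of a type and less RNA per cell cannot be told apart, for Ccr2 or for any of the other genes. Ccr2 differed by -1.17 without WT tumour 3, by -0.77 without Ext1S100a4Cre tumour 1 and by -0.35 without both.

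Ccr1 (probe A_52_P616356), a receptor for CCL3 and CCL5 on monocytes and neutrophils, was dim. It was well above background in WT tumours 2, 3 and 4 and in Ext1S100a4Cre tumours 3 and 4 only. Its readings were -6.96, -5.60, -5.75 and -6.11 in the WT tumours and -8.77, -6.91, -5.62 and -5.95 in the Ext1S100a4Cre tumours. The 5 tumours above background lay between -6.11 and -5.60, and the 3 lower readings are not well above background. The Ccr1 difference of -0.71 (SE 0.67, interval -2.25 to 0.83; limma adjusted p = 0.788, exact permutation p = 0.514) therefore rests partly on background readings, and normexp background correction turned it to 0.11.

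**Figure D2:**
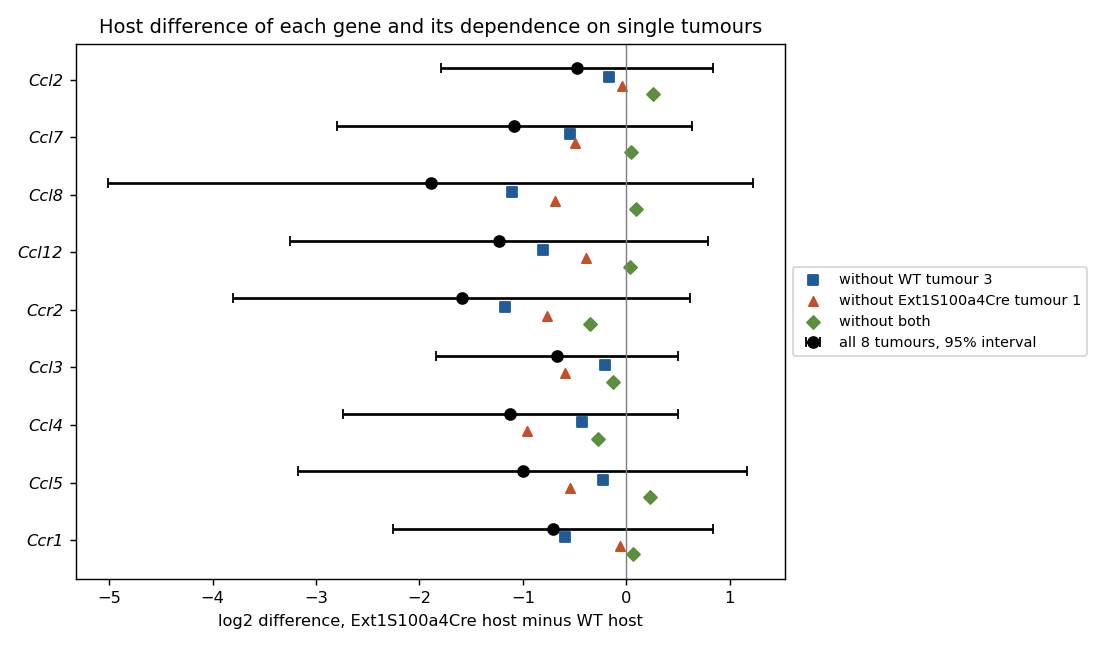
Difference of each gene between hosts (horizontal axis: log2, Ext1S100a4Cre host minus WT host). Circles with bars are limma's estimate and 95% interval from all 8 tumours; squares leave out WT tumour 3, triangles Ext1S100a4Cre tumour 1, and diamonds both. All 9 circles lie below 0 with intervals that include 0, and the 9 diamonds lie between -0.35 and 0.26.

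The 9 genes varied in common among tumours of the same host. WT tumours 2 and 3 and Ext1S100a4Cre tumour 3 were above the 8-tumour mean in 9 of 9 genes. Ext1S100a4Cre tumour 1 was above it in 0 and tumour 2 in 2, and WT tumours 1 and 4 were above it in 4 each and Ext1S100a4Cre tumour 4 in 5. Relative to the 8-tumour mean, the average of the 9 genes stood at -0.19, 0.51, 2.05 and -0.20 in the WT tumours and at -2.28, -0.65, 0.79 and -0.02 in the Ext1S100a4Cre tumours.

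**Figure D3:**
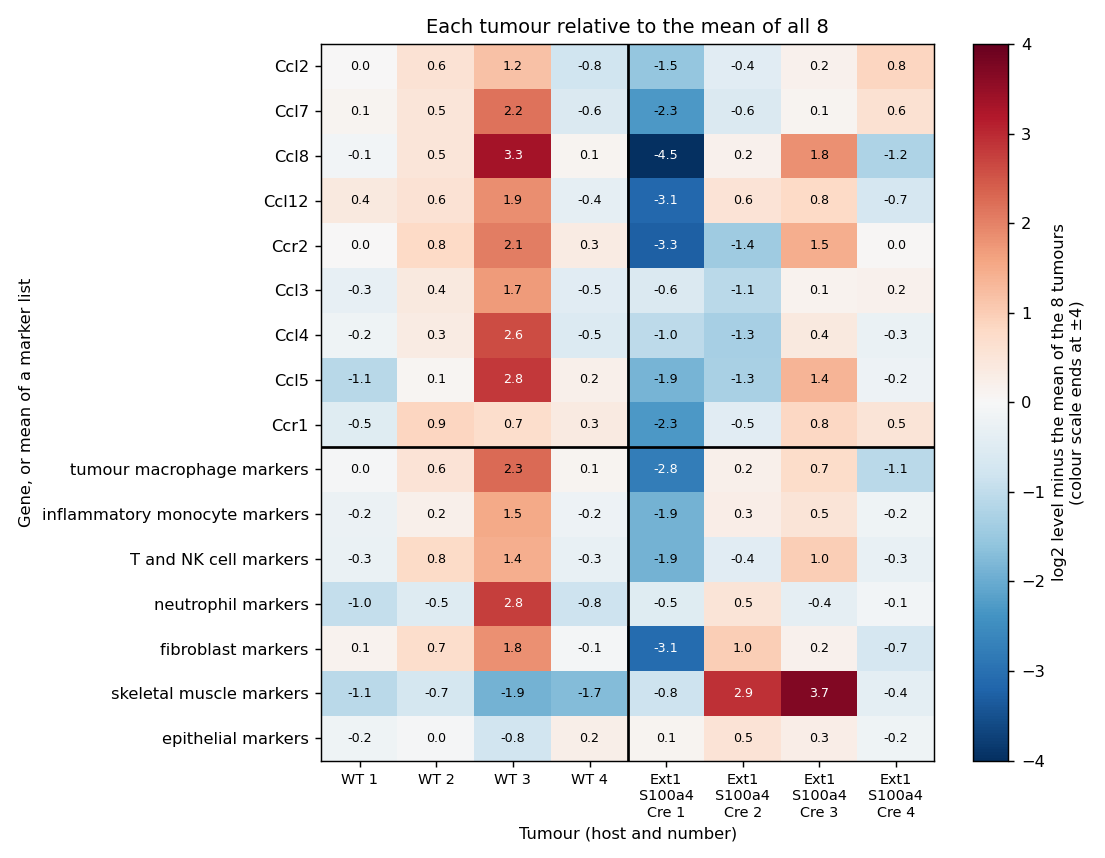
Level of each gene, and mean level of marker lists, in each tumour relative to the mean of the 8 tumours (colour and printed number: log2; the colour scale ends at 4 units from 0). The column of WT tumour 3 is high and that of Ext1S100a4Cre tumour 1 low for all 9 genes and for macrophage, monocyte, T and NK cell and fibroblast markers, while skeletal muscle markers are high in Ext1S100a4Cre tumours 2 and 3.

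By Pearson r, 3 pairs of ligand genes that lie next to each other on chromosome 11 had the most alike profiles over the 8 tumours, an order that did not hold by every measure. Of 21 ligand pairs, a set of comparisons chosen after the values were seen, the 3 highest correlations were those of Ccl3 with Ccl4, of Ccl8 with Ccl12 and of Ccl2 with Ccl7, and in the annotated order of CC genes each of these pairs is adjacent. For Ccl3 and Ccl4, r was 0.97 (exact permutation p = 0.000372, adjusted over 21 pairs 0.0026) and rho 0.88 (p = 0.00724, adjusted 0.0304, exact). For Ccl8 and Ccl12, r was 0.97 (exact permutation p = 0.000174, adjusted 0.00182) and rho 0.98 (p = 0.000397, adjusted 0.00417, exact). For Ccl2 and Ccl7, r was 0.95 (exact permutation p = 4.96e-05, adjusted 0.00104) and rho 0.98 (p = 0.000397, adjusted 0.00417, exact). Without the 2 tumours farthest from the median of the first gene named in each pair, these correlations were 0.84, 0.80 and 0.98. By rank, Ccl2 with Ccl3 (rho 0.90) stood above and Ccl3 with Ccl7 (rho 0.88) level with Ccl3 and Ccl4, although neither pair is adjacent. With 2 tumours left out in that way, Ccl4 with Ccl12 (0.91) and Ccl4 with Ccl8 (0.88), also not adjacent, exceeded Ccl3 with Ccl4 and Ccl8 with Ccl12. The tumours left out were WT tumour 3 and Ext1S100a4Cre tumour 2 for pairs named with Ccl3 or Ccl4 first. For Ccl8 with Ccl12 they were WT tumour 3 and Ext1S100a4Cre tumour 1. These values therefore rest on different sets of tumours and do not rank the pairs on equal terms. Between the Ccl2 and Ccl7 pair and the Ccl8 and Ccl12 pair the relation rested on WT tumour 3 and Ext1S100a4Cre tumour 1. For Ccl7 with Ccl8, r of 0.84 became -0.20 without them, and for Ccl2 with Ccl12, 0.74 became -0.08. Ext1S100a4Cre tumour 4 shows this split, with Ccl2 and Ccl7 at 0.85 and 0.59 and Ccl8 and Ccl12 at -1.22 and -0.69 relative to their 8-tumour means.

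**Figure D4:**
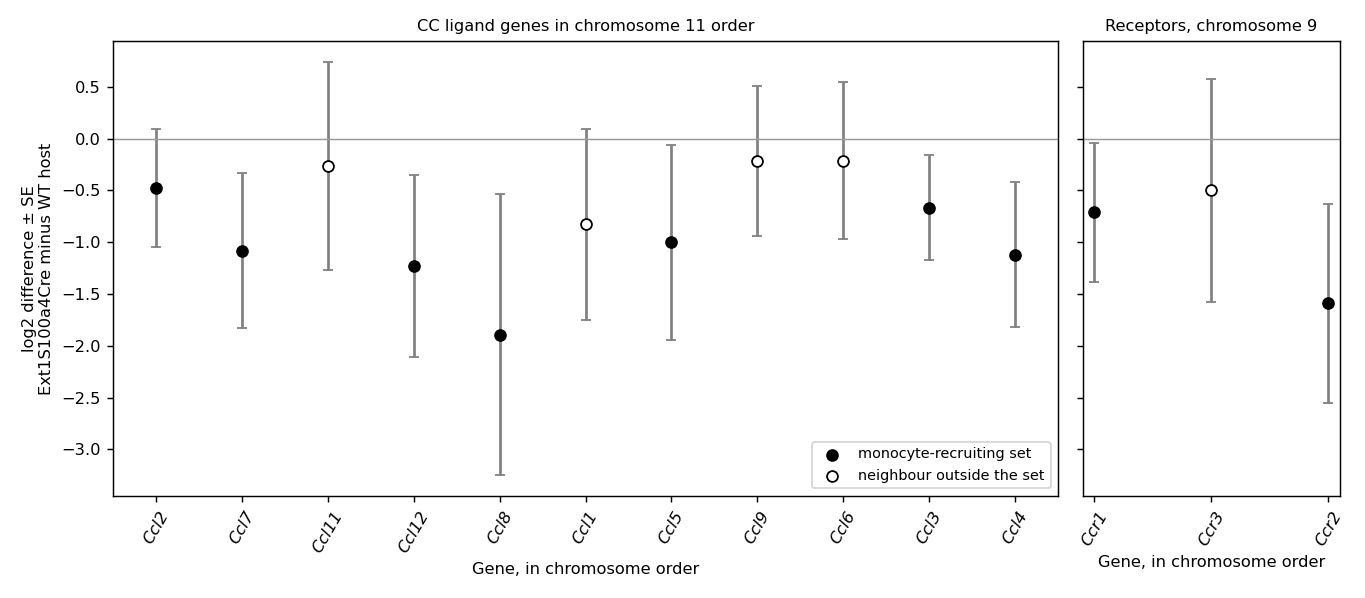
Difference between hosts of CC ligand genes in their order on chromosome 11 and of receptor genes in their order on chromosome 9 (vertical axis: log2, Ext1S100a4Cre host minus WT host, with limma's SE; spacing along the chromosome is not to scale). Filled points are the 9 genes described here and open points their chemokine-system neighbours, among which Ccl11, Ccl9 and Ccl6 lie between -0.26 and -0.21.

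The neighbours did not all share the size of these differences. Ccl11, an eosinophil attractant between Ccl7 and Ccl12, differed by -0.26 (SE 1.00), Ccl1 beyond Ccl8 by -0.83 (SE 0.92), and Ccl9 and Ccl6, between Ccl5 and Ccl3, by -0.22 (SE 0.73) and -0.21 (SE 0.76). On chromosome 9, Ccr3, the eosinophil receptor between Ccr1 and Ccr2, differed by -0.50 (SE 1.08). No difference between a member and its neighbour was tested.

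Ligand and receptor transcripts were set against each other in 14 pairs over the 8 tumours. With Ccr2, r ran from 0.74 for Ccl3 to 0.91 for Ccl8, and all 7 were positive. Ccl5 had the highest rank correlation with Ccr2, with r of 0.88 (exact permutation p = 0.00399, adjusted over 14 pairs 0.0269) and rho of 0.98 (p = 0.000397, adjusted 0.00556, exact), and r was 0.88 without WT tumour 3 and Ext1S100a4Cre tumour 1. Ccl4 and Ccl3 gave 0.94 and 0.82 with Ccr2 without those tumours. For the CCR2 ligands the relation rested on them: without them r with Ccr2 fell from 0.81 to 0.36 for Ccl2, from 0.88 to 0.47 for Ccl7 and from 0.85 to 0.16 for Ccl12. Ccl8 gave 0.91 and 0.54. With Ccr1, which was near background, r lay between 0.56 and 0.82.

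Cell type markers varied with these genes. The mean of 12 macrophage markers (such as Adgre1, Csf1r and C1qa) stood at -0.04, 0.56, 2.25 and 0.11 relative to the 8-tumour mean in the WT tumours and at -2.78, 0.22, 0.75 and -1.07 in the Ext1S100a4Cre tumours. All 12 had a lower mean in the Ext1S100a4Cre host, with a median difference of -1.41 and 0 past the limma threshold. Over the 8 tumours this marker mean had an r of 0.99 with Ccl8 (exact permutation p = 2.48e-05, adjusted over 9 genes 0.000223) and put the tumours in the same order as Ccl8 did (rho = 1; exact p = 4.96e-05, the smallest possible, adjusted 0.000446). Ccl12 followed with an r of 0.97 (exact permutation p = 0.000273, adjusted 0.00123) and a rho of 0.98 (p = 0.000397, adjusted 0.00179, exact). Without WT tumour 3 and Ext1S100a4Cre tumour 1 these values of r were 0.92 and 0.85. For the other 7 genes r with the macrophage mean was 0.62 to 0.87 over 8 tumours and -0.34 to 0.37 without these 2, so r rested on them. Over all 8 tumours rho of these 7 genes ran from 0.45 for Ccl7 to 0.83 for Ccr2 (exact permutation p = 0.0154 for Ccr2, adjusted 0.0461). This set of correlations was also chosen after the values were seen. Among the 12 markers, Cd163 was well above background in only 2 Ext1S100a4Cre tumours. It measured -8.54 and -7.68 in tumours 1 and 4 of that host and was highest of all 8 in tumour 2, at 0.79. The marker mean and its order of tumours include these readings and were not computed without Cd163.

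**Figure D5:**
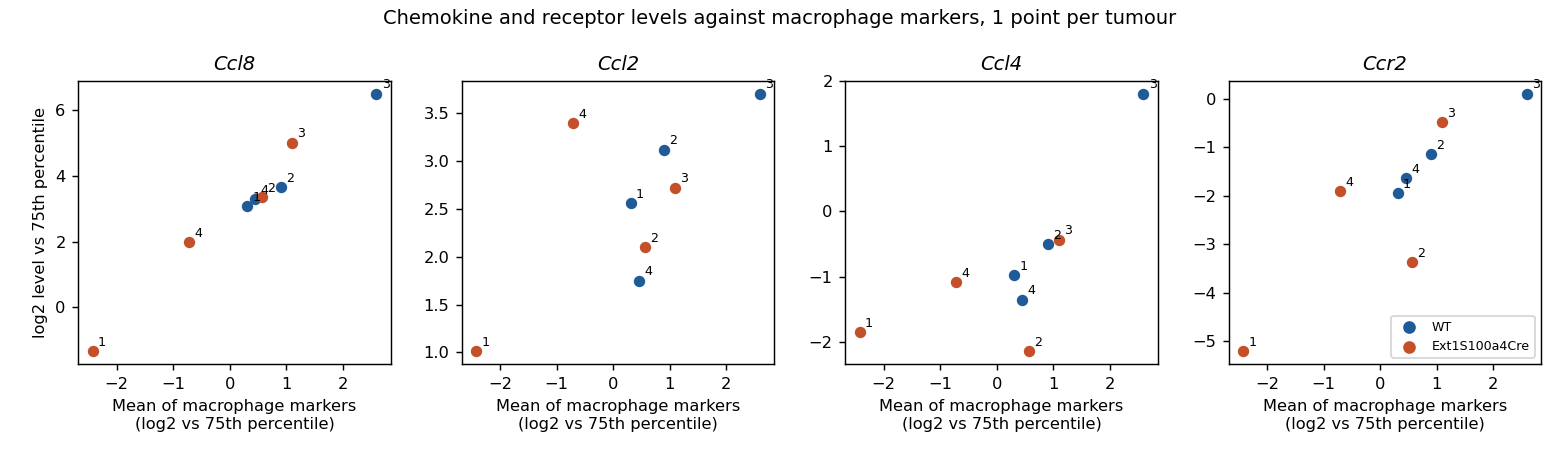
Levels of Ccl8, Ccl2, Ccl4 and Ccr2 (vertical axes) against the mean of 12 macrophage markers (horizontal axes), both as log2 relative to the array's 75th percentile, with 1 point per tumour and its number. Ccl8 follows the marker mean through all 8 tumours (r = 0.99), whereas Ccl2 (r = 0.68) is high in Ext1S100a4Cre tumour 4, where the markers are low.

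As a ratio to the macrophage marker mean of the same tumour, most of the 9 genes were higher in the Ext1S100a4Cre host. Most were lower as a ratio to monocyte markers. With macrophage markers the directions were mixed. Ccl8 and Ccr2 remained lower in the Ext1S100a4Cre host, by 0.45 and 0.15, and the other 7 were higher, from 0.21 for Ccl12 to 0.96 for Ccl2. Exact permutation p values of these 9 tests ran from 0.286 to 0.857. The spread of Ccl12 over the 8 tumours was 5.01 log2 units as a level and 0.89 as this ratio, and that of Ccl8 was 7.86 and 2.84. For Ccl2 it was 2.69 as a level and 3.01 as the ratio. Against the mean of 12 monocyte markers, 8 of the 9 genes were lower in the Ext1S100a4Cre host, by 1.26 for Ccl8, 0.96 for Ccr2, 0.59 for Ccl12 and 0.03 to 0.48 for the other 5, and Ccl2 was higher by 0.16. The exact permutation p values of the 9 tests ran from 0.171 to 0.971. The monocyte mean includes Chil3, which was higher in the Ext1S100a4Cre host by 2.98, and Itgam and Ms4a4c, which hardly differed (0.11 and -0.0062). The macrophage mean includes Cd163, whose readings in Ext1S100a4Cre tumours 1 and 4 (-8.54 and -7.68) were not well above background. Both sets of ratios depend on which markers a list holds, and ratios without these genes were not computed.

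Other marker lists moved as well, and their part in these differences was not tested. Of 12 monocyte markers, 10 had a lower and 2 a higher mean (median -0.96), and the list mean ran from 0.87 to 2.63 in the WT host and from -0.79 to 1.62 in the Ext1S100a4Cre host. Chil3, a secreted protein of monocytes and alternatively activated macrophages, went the other way at 2.98 (SE 0.89, limma unadjusted p = 0.00971, adjusted 0.747). T and NK cell markers had a median difference of -0.80 (11 of 12 lower) and fibroblast markers of -1.59 (10 of 10 lower), both lowest in Ext1S100a4Cre tumour 1. Without WT tumour 3 and Ext1S100a4Cre tumour 1 the median differences were -0.24 for macrophage, 0.036 for monocyte, -0.08 for T and NK cell and -0.0053 for fibroblast markers. Neutrophil markers (4 of 7 lower, median -0.16) were high in WT tumour 3 alone, at 1.17 against -2.55 to -1.06 in the other 7 tumours. Skeletal muscle markers (7 of 7 higher, median 2.75) were high in Ext1S100a4Cre tumours 2 and 3, at 0.03 and 0.83 against -4.77 to -3.28 in the other 6, and without those tumours the median of the 9 genes was -1.39. All 4 Y-linked genes measured were well above background in 4 of 4 WT tumours and in Ext1S100a4Cre tumours 2 and 3 only, and without tumours 1 and 4 the median of the 9 genes was -0.48, with 7 lower and 2 higher. The sex of the hosts is not given in the labels, but Y-linked signal was uneven between the 2 groups. Eif2s3y measured -8.53 and -8.15 in Ext1S100a4Cre tumours 1 and 4, against -2.25 to -0.40 in the WT tumours. It was -1.14 and -1.93 in Ext1S100a4Cre tumours 2 and 3. The part of this unevenness in the host differences was not tested. In all 13 lists other than those of the 9 genes, 0 genes passed the limma threshold. Of their 119 genes tested 7 were lower and 7 higher at a limma unadjusted p under 0.05, against 2.16% and 4.39% of all genes. The 7 lower were 3 other receptors, 2 macrophage and 2 fibroblast markers. Of the 7 higher, 4 were skeletal muscle markers.

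The other genes of the chemokine system gave a mixed picture. Of 13 further CC ligands, 11 were tested, 6 with a lower and 5 with a higher mean (median -0.05). Ccl24, an eosinophil attractant made by alternatively activated macrophages, measured -2.54, -1.43, -1.04 and -3.00 in the WT tumours and -2.11, -0.38, 2.34 and 4.08 in the Ext1S100a4Cre tumours. That difference was 2.99 (SE 1.26, limma unadjusted p = 0.0444, adjusted 0.747), with tumours 2, 3 and 4 above and tumour 1 within the range of the WT tumours. Of 13 further receptors, 11 were tested, 9 with a lower and 2 with a higher mean (median -0.59, or -0.25 with normexp, -0.28 with array weights and 0.084 without WT tumour 3 and Ext1S100a4Cre tumour 1). The tumours of both hosts did not overlap for Cx3cr1, the fractalkine receptor of resident monocytes and macrophages, which measured 1.09 to 2.95 in the WT host and -2.86 to 0.93 in the Ext1S100a4Cre host (-2.75, SE 0.78, limma adjusted p = 0.747). Ccr8, the mouse receptor for CCL8, differed by -0.56 (SE 0.23, limma unadjusted p = 0.0416, adjusted 0.747).

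Genes that induce these chemokines or share their control by NF-kB had mostly lower means, 14 of 15 tested (median -0.69, or -0.33 with normexp, -0.36 with the filter on all 8 arrays, -0.43 with array weights, -0.25 without WT tumour 3 and -0.32 without Ext1S100a4Cre tumour 1). Without both of these tumours the median was 0.026. The interleukin gene Il1b, an inducer of Ccl2, measured -2.12, -1.73, 1.56 and -1.39 in the WT tumours and -2.95 to -2.26 in the Ext1S100a4Cre tumours. These did not overlap, and the difference of -1.58 (SE 0.74) had a limma adjusted p of 0.747. Nfkbia, the inhibitor that NF-kB itself induces, was the member with a higher mean (0.34, SE 0.21, limma adjusted p = 0.747).

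Over 14331 named genes well above background on all 8 arrays, those with profiles most like that of Ccl2 over the 8 tumours were Serpinc1, Gpr176, Flna, Msn and Chst12, with r from 0.95 to 0.96. For Ccr2 they were Scimp, Rhoh, Wdfy4, Lair1 and Il12rb1, with r of 0.98 to 0.99. These values describe 8 arrays whose values share WT tumour 3 and Ext1S100a4Cre tumour 1 as extremes, and they are the highest of many, so no p is given.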

How the data were processed

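Agilent Feature Extraction 10.7.3.1 wrote the deposited scanner files, per the file headers (9.1 in the submitters' processing notes). They hold spot intensities from which background was subtracted and detrended. The flags used, for background, saturation and outliers, are further deposited columns in which 1 marks the spot, and the deposited series matrix holds intensities. The log2 intensity minus the array's 75th percentile over all spots that are not controls was used here. Flagged outlier spots were left out (53 to 132 per array), 0 spots were saturated, and a probe's spots were averaged. Kept were probes that at least 4 of 8 arrays showed well above background, and each gene was represented by its brightest. Probes were named through their accession in a RefSeq table of assembly GRCm38.p6, which matched 32994 of 56605. The file headers name build mm9, so the table served for names and gene order only.

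The host comparison used R 4.3.3 with limma 3.58.1 (two-sided, lmFit then eBayes, Benjamini-Hochberg over 31281 genes, threshold 0.05), checked on simulated data, and with the exact two-sided permutation test over 70 splits, whose smallest p is 0.0286. Errors are limma's SE or the SD between tumours. Precision is limited by the number of arrays and by how bright a probe is over background. The members and lists were chosen with earlier results of these data known. Named genes are the 9 members, Ext1, S100a4, up to 4 genes of each list by smallest unadjusted p, any other chemokine or receptor, and the 5 genes most like Ccl2 and Ccr2; 1 receptor gene, included in the list counts, is not reported here by name; a few list members, such as Krt8, Krt18, Csf1r, C1qa and Nfkbia, were named as examples after their values were seen. S100a4 measured 3.71 ± 1.14 and 3.82 ± 0.90 (SD, n = 4 each), with a limma difference of 0.11 (SE 0.63, adjusted p = 0.968). The alternatives were normexp (offset 50), quantile and median scaling, the unscaled series matrix, no filter or one on all 8 arrays, a gene's probes averaged or taken singly, blocks for replicate number or slide row, a threshold of 0.1, weights for arrays, a robust trended variance, and leaving out tumours.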

Additional observations from a re-analysis of the deposited data

Results flagged for a closer look

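In tests of single samples within groups of 4 (48 group tests, in which chance gives about 1 in 20), 2 values stood farther apart than Dixon's 95% critical value. Ccl8 in WT tumour 3 measured 6.51, against 3.67 in the next highest WT tumour, a gap of 0.830 of the group's range only just past that limit. The mean of the neutrophil markers was 1.17 in the same tumour, against -2.10 in the next, a gap of 0.879 of the range. Ccl8 differed between hosts by -1.10 without that tumour, in place of -1.89.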

How the results depend on the processing

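Over 23 alternatives, 206 values of the 9 genes were computed. In 197 the direction was kept, in 9 it was reversed, and 0 passed the limma threshold (smallest adjusted p 0.282). Ccr1 has no value under the filter on all 8 arrays. The reversed values were 0.11 for Ccr1 under normexp, 0.044 for Ccl8 and 0.068 for Ccl12 without Ext1S100a4Cre tumours 1 and 4, and, without WT tumour 3 and Ext1S100a4Cre tumour 1, 0.26 for Ccl2, 0.22 for Ccl5, 0.044 for Ccl7, 0.098 for Ccl8, 0.032 for Ccl12 and 0.062 for Ccr1. The median of the 9 genes ran from -1.46 to -0.54 with 1 tumour left out; it was -0.54 without WT tumour 3 and -0.55 without Ext1S100a4Cre tumour 1, the 2 that moved it most towards 0. It was -0.62 with array weights and -1.33 with the unscaled series matrix, in which the median of all genes was -0.20. The causes were not tested.

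The count of all genes past the threshold was 1 with normexp, 1 with array weights, 0 to 2 with 1 tumour left out, 11 without Ext1S100a4Cre tumours 1 and 4 and 3 without WT tumour 3 and Ext1S100a4Cre tumour 1. At an unadjusted p under 0.05 it was 3241 with the replicate block and 5361 without Ext1S100a4Cre tumours 2 and 3, in place of 2050. Of these, 33.0% were lower in the Ext1S100a4Cre host, 14.8% with normexp and 93.6% with the series matrix. The labels do not say whether replicate numbers pair the tumours. Correlations of same-numbered tumours were 0.49, -0.16, 0.59 and -0.25, against -0.58 to 0.31 for differently numbered ones, which does not settle it. With the replicate block 4 of the 9 genes had a limma unadjusted p under 0.05, beside 3241 of all 31281 genes tested. Of the 9 genes, 0 passed the threshold (smallest limma adjusted p 0.389). List medians became 0.073 for fibroblast and 0.18 for Y-linked genes without Ext1S100a4Cre tumours 1 and 4, -1.96 for monocyte and -4.09 for Y-linked genes without tumours 2 and 3, and 0.026 for NF-kB, 0.036 for monocyte and -0.0053 for fibroblast genes without WT tumour 3 and Ext1S100a4Cre tumour 1.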
